A study of Mus musculus with 8 samples.

Results

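The genes described here are *Rbm8a*, *Magoh*, *Nr3c1*, *Eif1a*, *Pax6*, *Chrac1*, *Pole3*, *Nfyb* and *Nfyc*, which encode proteins known to be carried across the nuclear envelope by importin 13 (IPO13). They were picked by symbol as known cargoes of IPO13, and all 9 were found among the 23420 gene rows of the count table and passed the filter of at least 1 count in any library. RNA-seq had been performed on mouse embryonic stem cells (mESCs) of 2 genotypes, IPO13+/+ and IPO13-/-, each left untreated or exposed to 125 µM H2O2 for 1 h with 2 h of recovery in clean medium. These 4 groups of 2 libraries are called WT-NS, WT-ST, KO-NS and KO-ST, where NS stands for no stress and ST for stress treated. All cells came from day 5 blastocysts of a 129 x C57BL/6 background and grew without feeders on gelatin, in medium with 12.5% FBS and LIF, the cytokine that keeps mouse stem cells pluripotent. The sources used here do not say how many independent knockout clones stand behind the IPO13-/- cells, or whether the libraries of a group came from separate cultures, so the p-values measure the spread between these libraries, which may be technical.

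IPO13 is a member of the importin β family that works in both directions, bringing some proteins into the nucleus and taking others out. The best known import cargoes are the RBM8A and MAGOH pair, which form the core of the exon junction complex left on spliced mRNA, and several pairs of proteins with a histone fold, among them NFYB with NFYC and CHRAC1 with POLE3. The glucocorticoid receptor, encoded by *Nr3c1*, and the paired-box transcription factor PAX6 are import cargoes too, whereas the translation initiation factor EIF1A is an export cargo. RNA-seq measures the mRNA of these proteins and says nothing of where the proteins were in the cell.

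The targeted gene was examined first. *Ipo13* had 4716 and 4786 counts in WT-NS, 4928 and 4791 in WT-ST, 1965 and 1555 in KO-NS, and 1610 and 1604 in KO-ST. It was lower in IPO13-/- cells in both conditions, with a log2 fold change of -1.44 (SE 0.05, FDR = 9.5e-19 from edgeR's quasi-likelihood test) without stress and -1.48 (SE 0.05, FDR = 6.9e-19) with stress, so that 0.368 and 0.358 of the IPO13+/+ level remained. All 8 listed stem cell markers had at least 10 counts in every library, and their summed level ran from 5658 to 6593 CPM, the number of counts scaled to a fixed library total. The 7 fibroblast markers summed to 6.45 to 9.23 CPM, with *Col3a1*, *Postn* and *Lum* at 3 counts or fewer in every library, and the 6 primitive endoderm markers to 15.2 to 21.8 CPM. Between 60397877 and 73789079 reads were counted on genes per library, and 3 counts, taken as the smallest number told from 0, equal 0.0407 to 0.0497 CPM, which covers counting error only.

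Levels between genes can be compared only per length, and the median CPM per kilobase of exon length over the 8 libraries covered a wide range among the cargo genes. *Magoh* was at 156 CPM per kilobase, *Eif1a* at 68.2 and *Rbm8a* at 56.8. The histone-fold genes followed, with *Nfyc* at 30.5, *Nfyb* at 16.3, *Pole3* at 15.1 and *Chrac1* at 10.1 CPM per kilobase. The transcription factor genes *Nr3c1*, at 4.19, and *Pax6*, at 0.123 CPM per kilobase, were the lowest of the 9. The ranges over the 8 libraries did not overlap between neighbours in this order for any pair except *Nfyb*, which ran from 15.4 to 17.8, and *Pole3*, from 14.3 to 15.4, whose ends meet. On the same scale *Magoh* stood well above its close copy *Magohb*, at 10.9 CPM per kilobase, while *Eif1a* was near its copy *Eif1ax*, at 50.4. *Nfya*, the subunit that joins the NFYB and NFYC pair, was at 9.46 and *Pole4*, a histone-fold subunit of DNA polymerase epsilon, at 43.0 CPM per kilobase. *Nr3c2*, encoding the mineralocorticoid receptor, was close to silent, at 0.053 CPM per kilobase and 8 to 27 counts per library. *Rbm8a2*, a near copy of *Rbm8a*, was not analysed here.

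**Figure D1:**
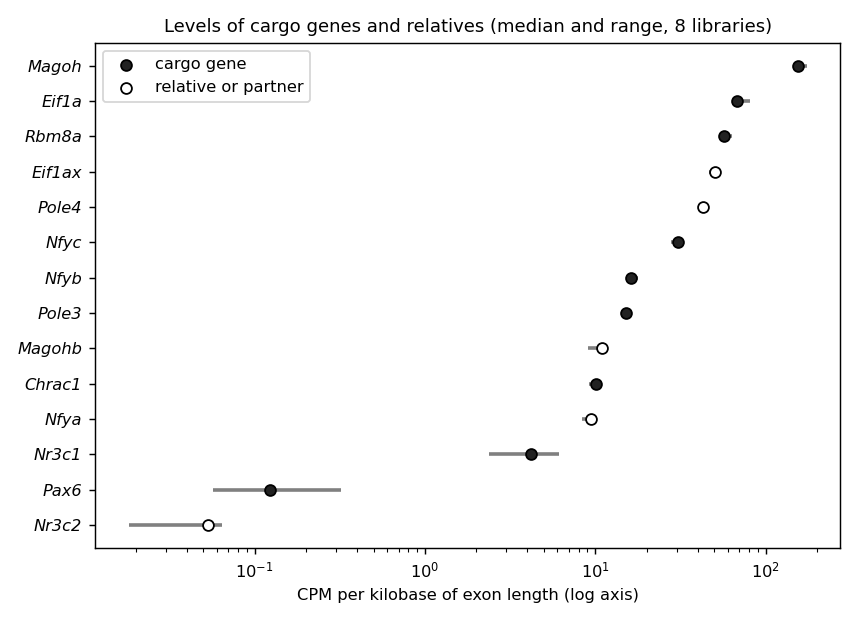
Median CPM per kilobase of exon length (log axis) of the 9 cargo genes (filled points) and 5 relatives or partners (open points), with bars from the lowest to the highest of 8 libraries. *Magoh*, at 156, and *Pax6*, at 0.123, are the ends of the range among the cargo genes.

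Most cargo mRNAs moved little. Without stress, 1 of the 9 cargo genes was higher in IPO13-/- than in IPO13+/+ cells, *Pax6*, and 3 were lower, *Eif1a*, *Rbm8a* and *Nfyc* (edgeR's quasi-likelihood test, FDR below 0.05). Over all 19424 genes tested, 18.7% were called higher and 19.4% lower in that comparison, so that the cargo genes were called at about the rate of other genes. Of these genes 15191 passed edgeR's filter for expressed genes (filterByExpr), so the shares over all genes, here and below, include many with few counts. Each of the 9 cargo genes had at least 45 counts in every library. Under stress 1 cargo gene differed between the genotypes, *Pax6*, which was higher in IPO13-/- cells, while 19.1% of all genes were called higher and 17.5% lower. H2O2 raised 2 cargo genes in IPO13+/+ cells, *Nr3c1* and *Nfyb*, and lowered 3, *Eif1a*, *Pax6* and *Rbm8a*, where 11.5% of all genes rose and 13.8% fell. In IPO13-/- cells it raised *Nr3c1* alone and lowered *Pax6* and *Eif1a*, where 14.9% of all genes rose and 14.4% fell. With library totals in place of TMM factors, the share of higher genes among all calls was 67.1% rather than 49.0% in KO-NS versus WT-NS and 60.5% rather than 45.4% in WT-ST versus WT-NS, and in the former comparison 1 cargo gene was higher, *Pax6*, and 1 lower, *Eif1a*.

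With the further requirement of a 2-fold change that the study set for its own calls, only *Pax6* and *Nr3c1* remained. *Pax6* passed in KO-NS versus WT-NS (4.71% of all genes passed), in KO-ST versus WT-ST (4.56%) and in KO-ST versus KO-NS (2.89%). In WT-ST versus WT-NS its log2 fold change of -0.98 was just short of 2-fold. *Nr3c1* passed in WT-ST versus WT-NS (2.90%) and in KO-ST versus KO-NS. The median log2 fold change over the 9 genes was -0.09, -0.02, -0.08 and -0.04 in KO-NS versus WT-NS, KO-ST versus WT-ST, WT-ST versus WT-NS and KO-ST versus KO-NS, and 0.00 over all genes in each of these. Comparisons that share a group of libraries, such as the first and the third, are not independent of each other.

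**Figure D2:**
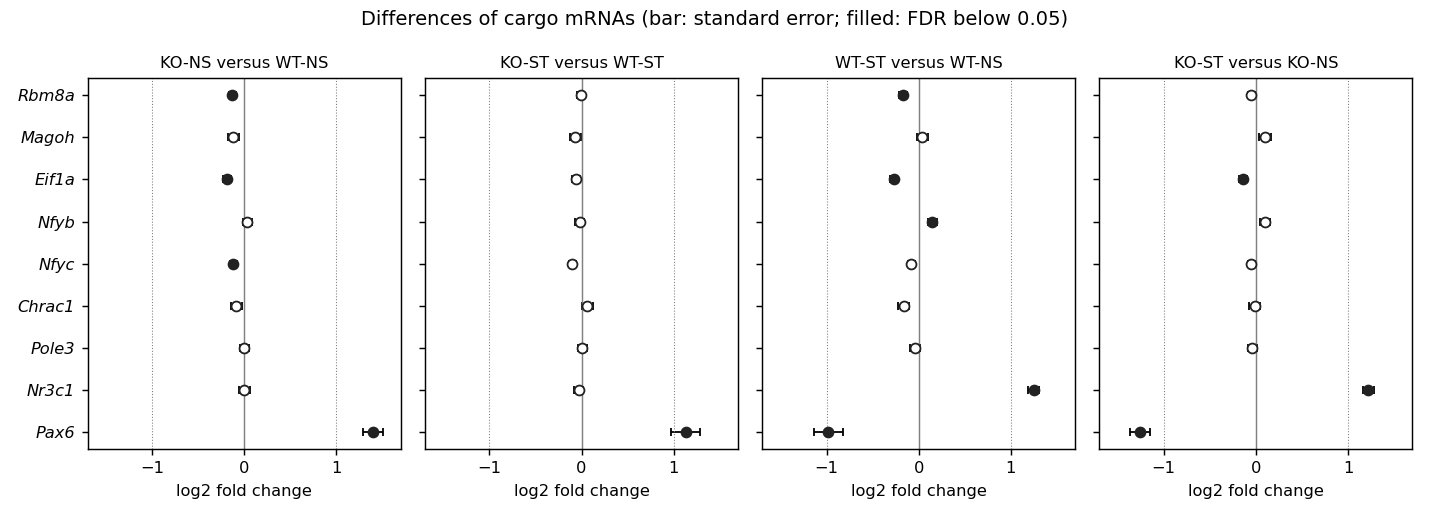
Log2 fold changes of the 9 cargo genes in the 4 comparisons, with bars of 1 standard error, filled points for an FDR below 0.05 and dotted lines at 2-fold. *Nr3c1* lies near 0 between genotypes and above 1 after H2O2, *Pax6* lies above 1 between genotypes and near or below -1 after H2O2, and the other 7 genes lie within 0.27 of 0 everywhere.

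*Nr3c1* (chromosome 18, 39410545 to 39519421, minus strand, GRCm38) encodes the glucocorticoid receptor, which waits in the cytoplasm with chaperones, binds corticosteroid hormone and then acts on genes in the nucleus. Normalized expression, given as CPM after TMM scaling of the library totals, was 20.5 and 18.2 in WT-NS and 19.7 and 19.0 in KO-NS. After H2O2 it was 44.8 and 47.1 in WT-ST and 46.3 and 43.8 in KO-ST. Every treated library was above every untreated library, and the genotypes overlapped in both conditions. The rise was 2.37-fold in IPO13+/+ cells, or 1.25 on the log2 scale (SE 0.06, FDR = 1e-15), and 2.33-fold in IPO13-/- cells, or 1.22 on that scale (SE 0.06, FDR = 1.5e-15, edgeR's quasi-likelihood test). In these bulk samples a change in the number of cells that hold a transcript and a change in its level per cell cannot be told apart.

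The responses of *Nr3c1* in the 2 genotypes differed by -0.03 on the log2 scale, with a 95% interval from -0.19 to 0.13 (FDR = 0.98 for the interaction of genotype and stress, edgeR's quasi-likelihood test). Its level differed between genotypes by 0.00 without stress (95% interval -0.12 to 0.12) and by -0.03 with stress (-0.13 to 0.08). The relative *Nr3c2* did not pass the test in any comparison.

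The glucocorticoid receptor works with the HSP90 chaperones and their helpers, and its textbook targets include *Sgk1*, *Dusp1*, *Per1*, *Tsc22d3* and *Fkbp5*. Of 16 listed partners and targets, 15 could be tested, since *Hsd11b1* had no counts. After stress 2 rose, 4 fell and 9 did not pass in IPO13+/+ cells, while 3 rose, 2 fell and 10 did not pass in IPO13-/- cells. The list had a median log2 fold change of -0.05 and 0.02, beside 0.00 over all genes in both comparisons, and with library totals 2 rose and 3 fell in IPO13-/- cells, with a median of -0.01. The shares over all genes were 11.5% rising and 13.8% falling in WT-ST versus WT-NS, and 14.9% and 14.4% in KO-ST versus KO-NS. *Dusp1*, a phosphatase of MAP kinases, rose with H2O2 by 0.63 (SE 0.04) in IPO13+/+ and 0.76 (SE 0.04) in IPO13-/- cells on the log2 scale, and the clock gene *Per1* by 0.22 (SE 0.06) and 0.21 (SE 0.06). The kinase gene *Sgk1* moved the other way, with log2 fold changes of -0.31 and -0.39 (SE 0.04 each), as did the coactivator gene *Ncoa2*, with -0.33 (SE 0.06) in both genotypes. *Zbtb16*, a zinc finger factor, fell in IPO13+/+ cells by 0.84 on the log2 scale (SE 0.30), a call lost with library totals (FDR = 0.055).

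Between genotypes members of the same list differed in both directions, and *Nr3c1* itself did not pass the test. Without stress 1 was higher, 5 were lower and 9 did not pass, with a median log2 fold change of -0.02, and with library totals 3 were higher and 3 lower, with a median of 0.06. Over all genes 18.7% were higher and 19.4% lower. *Sgk1* was lower by -0.65 (SE 0.04), from a mean of 365 CPM in WT-NS to 232 in KO-NS, *Dusp1* by -0.53 (SE 0.04), the cochaperone gene *Fkbp4* by -0.22 (SE 0.04) and the chaperone gene *Hsp90ab1* by -0.13 (SE 0.03), the last of which did not pass with library totals (FDR = 0.17). Under stress 3 were higher, 3 were lower and 9 did not pass, with a median of 0.02, where 19.1% of all genes were higher and 17.5% lower. *Sgk1* was lower by -0.74 (SE 0.04) and *Dusp1* by -0.39 (SE 0.04), while *Tsc22d3* was higher by 0.55 (SE 0.13) and *Fkbp5* by 0.17 (SE 0.04) on the log2 scale. In the interaction 0 of the 15 passed an FDR of 0.05 with edgeR, limma-voom or DESeq2, and 2, 2 and 0 had an unadjusted p under 0.05.

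*Pax6* (chromosome 2, 105668900 to 105697364, plus strand, GRCm38) encodes a paired-box and homeodomain factor that directs the development of the eye and forebrain. Its counts were low but well above the floor, with 92 and 96 in WT-NS, 45 and 50 in WT-ST, 283 and 217 in KO-NS, and 97 and 95 in KO-ST. After TMM scaling these were 1.37 and 1.37 CPM in WT-NS, 0.661 and 0.723 in WT-ST, 3.74 and 3.50 in KO-NS, and 1.50 and 1.54 in KO-ST. No 2 of the 4 groups overlapped, in the order KO-NS, KO-ST, WT-NS and WT-ST from high to low.

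*Pax6* was 2.64-fold higher in IPO13-/- cells without stress, or 1.40 on the log2 scale (SE 0.11, FDR = 1.3e-10), and 2.19-fold higher with stress, or 1.13 (SE 0.16, FDR = 2.4e-06, edgeR's quasi-likelihood test). H2O2 lowered it in both genotypes, with a log2 fold change of -0.98 (SE 0.16, FDR = 3.7e-05) in IPO13+/+ and -1.26 (SE 0.11, FDR = 1.3e-09) in IPO13-/- cells. The treated IPO13-/- libraries still stood above the untreated IPO13+/+ libraries. The difference between the responses was -0.27 on the log2 scale, with a 95% interval from -0.68 to 0.13 (FDR = 0.62 for the interaction).

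Some markers of other cell types differed between the genotypes beside *Pax6*. The 6 neural progenitor markers summed to 20.6 to 22.4 CPM in WT-NS, 19.9 to 21.1 in WT-ST, 24.5 to 27.3 in KO-NS and 23.8 in both KO-ST libraries, with *Pax3* at 3 counts or fewer in every library. Of the 6, *Nes* was higher and *Sox1* lower in IPO13-/- cells in both conditions, and the other 4 did not pass the test. The 6 trophectoderm markers summed to 74.5 to 83.0 CPM in the 4 IPO13+/+ libraries and 84.8 to 100.0 in the 4 IPO13-/- libraries, and the stem cell markers to 6256 to 6593 and 5658 to 5955. Neither list moved as a whole. Of the trophectoderm markers *Tfap2c* was higher in KO-NS, with means of 79.2 CPM against 43.7 in WT-NS after TMM scaling, *Krt8* and *Krt7* were lower by a log2 fold change of -1.25 (SE 0.08) and -1.08 (SE 0.14), and 3 did not pass, with a median of -0.70. Under stress *Tfap2c* and *Cdx2* were higher, *Krt8* and *Krt7* lower and 2 did not pass. Of the stem cell markers 2 were higher, *Utf1* and *Nanog*, 4 lower and 2 not past the test without stress, while under stress *Utf1* was higher, *Dppa5a* lower and 6 did not pass. *Dppa5a* had the largest shift in CPM, with means of 1294 in KO-NS and 1942 in WT-NS, and 1477 in KO-ST and 2044 in WT-ST. The part of these shifts in the level of *Pax6* was not tested.

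Few of the listed neural and eye factors passed the test between genotypes. Without stress 1 of 11 was higher in IPO13-/- cells, 1 was lower and 9 did not pass, with a median log2 fold change of 0.28. Under stress it was 1, 2 and 8, with a median of -0.14. The 0.28 was the value of *Six3* (SE 0.5), at means of 0.166 CPM in KO-NS and 0.131 in WT-NS. *Six3*, *Rax*, *Neurog2*, *Pax2* and *Pax3* had no group mean above 0.35 CPM. Over all genes 18.7% were higher and 19.4% lower without stress, and 19.1% and 17.5% under stress. *Lhx2*, a LIM-homeodomain factor of the early eye field, was higher by 1.07 (SE 0.21) and 0.78 (SE 0.26), at mean levels of 0.857 CPM in KO-NS and 0.408 in WT-NS. *Sox1*, an early marker of neural fate, was lower by -0.95 (SE 0.08) and -1.22 (SE 0.09), and *Otx2*, a forebrain factor, was lower under stress by -0.37 (SE 0.09) on the log2 scale. After H2O2 3 of the 11 fell in IPO13+/+ cells and 6 in IPO13-/- cells while the others did not pass. The medians were -0.12 and -0.65, where 13.8% and 14.4% of all genes fell. The -0.12 was the value of *Sox2*, at means of 388 CPM in WT-ST and 421 in WT-NS. The -0.65 was that of *Pax2* (SE 0.37), at means of 0.221 CPM in KO-ST and 0.35 in KO-NS. *Six3*, among the 6, had means of 0.0478 and 0.166 CPM in these groups, the former about 3 counts. *Otx2* fell by 0.54 (SE 0.08) and 0.81 (SE 0.08) on the log2 scale and *Sox1* by 0.42 (SE 0.07) and 0.70 (SE 0.10), and *Sox2* by 0.12 (SE 0.04) and 0.17 (SE 0.04), the former not past the test with library totals (FDR = 0.14). In IPO13-/- cells *Meis2* fell by 0.75 (SE 0.13) and *Lhx2* by 0.63 (SE 0.20). In the interaction 0 of the 11 passed an FDR of 0.05 with edgeR, limma-voom or DESeq2, and 4, 2 and 0 had an unadjusted p under 0.05.

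**Figure D3:**
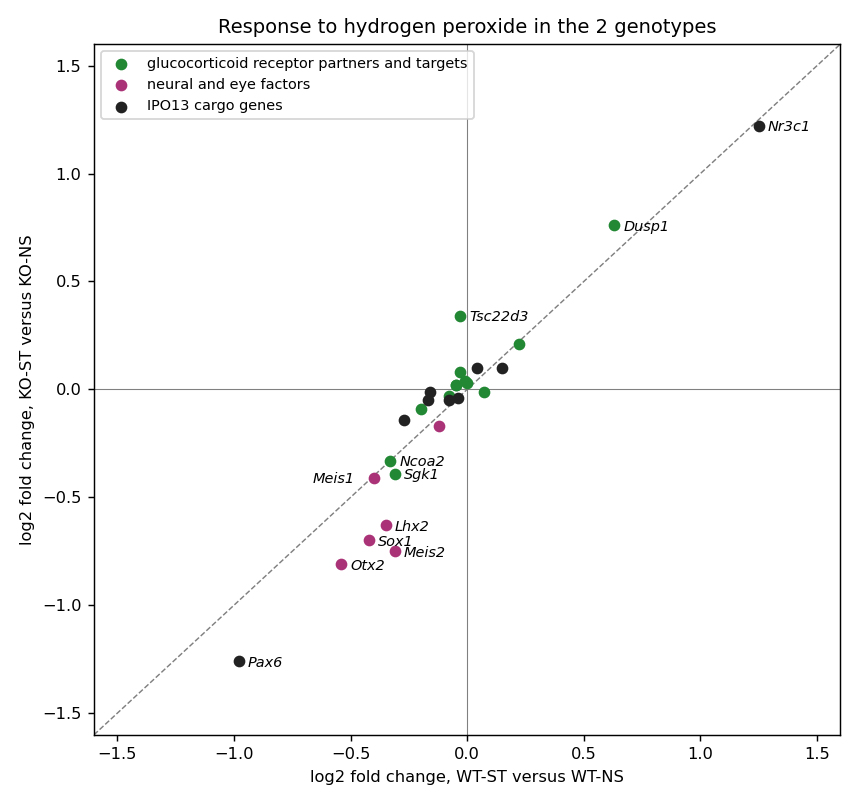
Log2 fold change after H2O2 in IPO13+/+ cells (horizontal axis) and IPO13-/- cells (vertical axis) of the 9 cargo genes and of the listed glucocorticoid receptor and neural genes with a mean of at least 0.3 CPM in every group; the dashed line marks equal responses. *Nr3c1*, at 1.25 and 1.22, and *Pax6*, at -0.98 and -1.26, are the ends of the plot.

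The sequence upstream of *Pax6* is shown because NFYB and NFYC, themselves cargoes, form with NFYA the factor NF-Y, which binds the letters CCAAT in promoters. In the set of RefSeq promoters used here, 5 of the 9 cargo genes were matched by symbol. The 250 bases before the first start of *Pax6* (chr2:105668646-105668895, plus strand, GRCm38.p6) and those before a start of *Nfyc* (chr4:120825210-120825459, minus strand) are printed 5′ to 3′, with CCAAT or its reverse complement ATTGG in capitals.
Pax6: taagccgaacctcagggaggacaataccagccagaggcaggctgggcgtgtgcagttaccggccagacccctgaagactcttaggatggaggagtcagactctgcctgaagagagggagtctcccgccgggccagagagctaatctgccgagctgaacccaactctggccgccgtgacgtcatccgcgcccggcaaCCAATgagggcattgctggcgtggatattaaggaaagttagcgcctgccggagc
Nfyc: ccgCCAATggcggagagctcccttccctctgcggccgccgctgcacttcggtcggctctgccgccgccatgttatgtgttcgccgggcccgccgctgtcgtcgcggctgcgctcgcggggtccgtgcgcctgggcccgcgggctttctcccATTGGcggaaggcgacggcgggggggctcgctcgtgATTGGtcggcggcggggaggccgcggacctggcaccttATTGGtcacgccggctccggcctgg
*Pax6* held 1 such motif, which begins 54 bases before the start, and this *Nfyc* promoter held 4, which begin 247, 99, 63 and 25 bases before it. A further *Nfyc* start had 2, and the windows of *Magoh*, *Pole3*, *Nfyb*, a further *Pax6* start and the remaining *Nfyc* start had none on either strand. The window of the further *Pax6* start lay within exons over all 250 bases, that of *Pole3* over 54 and that of *Nfyb* over 3. Of 32851 RefSeq promoters of the same length, 11120 (33.8%) held CCAAT on either strand. A match of letters is not a site of binding, and these libraries hold no measure of NF-Y on DNA.

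*Eif1a* (chromosome 18, 46597701 to 46616456, plus strand) encodes the initiation factor that helps the small ribosomal subunit scan for the start codon. Normalized expression was 336 and 332 CPM in WT-NS, 298 and 288 in KO-NS, 272 and 280 in WT-ST, and 265 and 267 in KO-ST. The 4 groups did not overlap, and the WT-NS libraries were the highest. *Eif1a* was 1.14-fold lower in IPO13-/- cells without stress, a log2 fold change of -0.19 (SE 0.04, FDR = 0.00026), and differed by -0.06 (SE 0.04, FDR = 0.29) with stress (edgeR's quasi-likelihood test).

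H2O2 lowered *Eif1a* by a log2 fold change of -0.27 (SE 0.04, FDR = 3.3e-06) in IPO13+/+ cells and -0.14 (SE 0.04, FDR = 0.0058) in IPO13-/- cells, as tested with edgeR's quasi-likelihood method. The latter call did not hold without KO-NS replicate 1 (FDR = 0.12), KO-ST replicate 1 (FDR = 0.08) or KO-ST replicate 2 (FDR = 0.062). The responses differed by 0.13 on the log2 scale, with a 95% interval from 0.03 to 0.24 but an FDR of 0.23 over all genes. The copy *Eif1ax* was higher in IPO13-/- cells under stress, by 0.13 (SE 0.04, FDR = 0.017), and lower after H2O2 in IPO13+/+ cells, by -0.12 (SE 0.04, FDR = 0.049, or 0.23 with library totals).

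Among 13 other factors of the translation preinitiation complex, 6 were lower and 7 did not pass in KO-NS versus WT-NS, with a median log2 fold change of -0.10 beside 0.00 over all genes. Over all genes 19.4% were lower. With library totals 1 of the 13 was lower, *Eif5*, and 12 did not pass. *Eif5* was lower by -0.24 (SE 0.04), *Eif1* by -0.16 (SE 0.04), *Eif3a* by -0.16 (SE 0.05) and *Eif2s3x* by -0.13 (SE 0.04). With stress 2 were higher and 1 lower in IPO13-/- cells, beside 19.1% and 17.5% of all genes. H2O2 lowered 5 in IPO13+/+ cells, or 2 with library totals and with DESeq2, and raised 2 and lowered 1 in IPO13-/- cells, where *Eif1* rose by 0.19 (SE 0.04) and *Eif1b* by 0.20 (SE 0.05). Of all genes 13.8% fell in IPO13+/+ cells, and 14.9% rose and 14.4% fell in IPO13-/- cells. The median log2 fold changes were -0.01, -0.07 and 0.02 in these 3 comparisons. In the interaction only *Eif2s2*, a subunit of the factor that brings the initiator tRNA, passed an FDR of 0.05, and with library totals it did not (FDR = 0.17).

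*Rbm8a* (chromosome 3, 96629933 to 96633791, plus strand) and *Magoh* (chromosome 4, 107879755 to 107887424, plus strand) encode the heterodimer of the exon junction complex, which marks splice junctions for mRNA export and for nonsense-mediated decay. *Rbm8a* was at 198 and 204 CPM in WT-NS, 176 and 180 in WT-ST, 183 and 184 in KO-NS, and 171 and 183 in KO-ST. The WT-NS libraries were above all others, and the other groups lay close together. *Rbm8a* was lower by a log2 fold change of -0.13 (SE 0.04, FDR = 0.015) in KO-NS versus WT-NS, and fell with H2O2 by 0.17 on the log2 scale (SE 0.04, FDR = 0.0022) in IPO13+/+ cells, both by edgeR's quasi-likelihood test. The difference between genotypes did not pass without WT-NS replicate 2 (FDR = 0.055), KO-NS replicate 1 (FDR = 0.2) or KO-NS replicate 2 (FDR = 0.088), and with library totals in place of TMM factors it was -0.048 (FDR = 0.41). The fall with stress did not pass without WT-ST replicate 1 (FDR = 0.063). In IPO13-/- cells the change of *Rbm8a* with H2O2 was -0.05 (SE 0.04, FDR = 0.41), and the genotypes under stress differed by -0.01 (SE 0.04, FDR = 0.95).

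*Magoh* was at 117 and 134 CPM in WT-NS, 124 and 134 in WT-ST, 116 and 114 in KO-NS, and 116 and 131 in KO-ST. The KO-NS libraries lay below those of WT-NS and below those of WT-ST, and the other pairs of groups overlapped. No comparison of *Magoh* passed the test, with a log2 fold change of -0.12 (SE 0.06, FDR = 0.094) in KO-NS versus WT-NS and between -0.07 and 0.10 in the other 3. Calls appeared when a library was left out, since without WT-NS replicate 1 the genotypes differed by -0.22 without stress (FDR = 0.0011), without WT-NS replicate 2 the change with H2O2 in IPO13+/+ cells was 0.14 (FDR = 0.047), and without KO-ST replicate 1 that in IPO13-/- cells was 0.20 (FDR = 0.03). *Magohb*, which encodes a nearly identical protein, was higher in IPO13-/- cells under stress by 0.22 (SE 0.06, FDR = 0.0068), with 15.7 and 17.0 CPM in WT-ST and 18.5 and 19.5 in KO-ST.

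Of the 16 listed genes of the exon junction complex and nonsense-mediated decay, 15 were tested. In KO-NS versus WT-NS 1 was higher, 5 were lower and 9 did not pass, and in KO-ST versus WT-ST it was 3, 4 and 8, with medians of -0.03 and -0.02, beside 18.7% higher and 19.4% lower, and 19.1% and 17.5%, over all genes. With library totals 4 were higher and 2 lower without stress, with a median of 0.05. *Upf2*, a scaffold of the decay complex, was higher by 0.25 (SE 0.05) and 0.21 (SE 0.05), and *Acin1*, a splicing-associated protein, was lower by -0.25 (SE 0.04) and -0.21 (SE 0.04). *Upf1*, the helicase of decay, was lower by -0.19 (SE 0.04) and *Eif4a3*, the RNA-clamping helicase of the junction complex, by -0.15 (SE 0.04, not past the test with library totals, FDR = 0.19) without stress, and *Upf3a* by -0.20 (SE 0.05) with stress. With H2O2 *Pnn* was the most changed member in both genotypes, with -0.20 (SE 0.05) and -0.30 (SE 0.05). The list had a median of -0.08 in IPO13+/+ cells. In IPO13-/- cells *Smg5* and *Smg6* rose and *Pnn* fell, with a median of -0.05, whereas with library totals 1 rose and 4 fell, and 14.9% of all genes rose and 14.4% fell.

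*Nfyb* (chromosome 10, 82748701 to 82764144, minus strand) and *Nfyc* (chromosome 4, 120757438 to 120831572, minus strand) encode the histone-fold dimer of NF-Y. *Nfyb* was at 78.1 and 79.9 CPM in WT-NS, 85.8 and 89.4 in WT-ST, 82.2 and 78.9 in KO-NS, and 83.0 and 90.0 in KO-ST. The treated libraries were above the untreated ones in both genotypes, and the genotypes overlapped. *Nfyb* rose with H2O2 in IPO13+/+ cells by a log2 fold change of 0.15 (SE 0.05, FDR = 0.018), a call that did not hold without WT-NS replicate 1 (FDR = 0.052) or WT-ST replicate 2 (FDR = 0.22). In IPO13-/- cells the change was 0.10 (SE 0.05, FDR = 0.11), or 0.17 (FDR = 0.024) without KO-ST replicate 1 (edgeR's quasi-likelihood test). The responses differed by -0.05, with a 95% interval from -0.18 to 0.08.

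*Nfyc* was at 97.9 and 94.1 CPM in WT-NS, 91.4 and 89.9 in WT-ST, 86.7 and 89.3 in KO-NS, and 87.7 and 81.8 in KO-ST. The IPO13-/- libraries were below the IPO13+/+ libraries in both conditions. The difference passed without stress, at -0.12 (SE 0.04, FDR = 0.028), and was -0.10 (SE 0.04, FDR = 0.097) with stress (edgeR's quasi-likelihood test). The first of these is a weak call, since 1 of 8 fits that each left out 1 library kept it, the one without WT-NS replicate 2, and the FDR reached 0.34 without KO-NS replicate 1. It was also lost with filterByExpr (-0.11, FDR = 0.053), with only the libraries compared (-0.11, FDR = 0.098) and with library totals (-0.044, FDR = 0.51). Under stress the difference passed without WT-NS replicate 1 or 2 (FDR = 0.049 each) and without KO-ST replicate 1 (FDR = 0.045). Of the 100-base windows of *Nfyc* transcripts, 12.1% also occur in transcripts of *Gm9144*, so reads could be shared between the genes. *Nfya* did not differ past the threshold between genotypes but fell with H2O2, by 0.15 (SE 0.04, FDR = 0.011) in IPO13+/+ and 0.25 (SE 0.04, FDR = 4.2e-05) in IPO13-/- cells on the log2 scale. With library totals its change in IPO13+/+ cells was -0.11 (FDR = 0.072), and it was higher in KO-NS than in WT-NS by 0.11 (FDR = 0.036). *Nfyc* did not pass the test with H2O2 in either genotype, at -0.08 (SE 0.04, FDR = 0.2) and -0.05 (SE 0.04, FDR = 0.43).

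*Chrac1* (chromosome 15, 73090392 to 73097554, plus strand) and *Pole3* (chromosome 4, 62522649 to 62525068, minus strand) encode the histone-fold pair of the chromatin accessibility complex, and POLE3 also pairs with POLE4 in DNA polymerase epsilon. *Chrac1* was at 24.3 and 26.0 CPM in WT-NS, 22.5 and 22.5 in WT-ST, 23.8 and 23.5 in KO-NS, and 21.8 and 25.3 in KO-ST. WT-NS was above WT-ST and KO-NS, and the 2 KO-ST libraries spanned the other groups except the higher WT-NS library. The largest of its differences was -0.16 (SE 0.06, FDR = 0.051) with H2O2 in IPO13+/+ cells, which passed without WT-NS replicate 1 (-0.21, FDR = 0.019), and no other passed. Exons of *Chrac1* overlap those of *Ago2* on the opposite strand over 219 bases, 9.3% of its exon length, and the counting was not stated to use strand, so reads of both genes may not have been told apart there.

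*Pole3* was the steadiest of the 9 in these tests, with 31.1 and 31.0 CPM in WT-NS, 29.4 and 30.8 in WT-ST, 31.4 and 30.6 in KO-NS, and 29.2 and 31.3 in KO-ST. All 4 two-group differences lay between -0.04 and 0.01 on the log2 scale, each with a 95% interval within -0.14 and 0.11. Its partner *Pole4* fell with H2O2 in IPO13+/+ cells by 0.13 on the log2 scale (SE 0.04, FDR = 0.023), and with library totals this was -0.087 (FDR = 0.14).

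Among 10 partners of the histone-fold cargoes, 1 was higher and 3 were lower in KO-NS versus WT-NS, or 4 and 3 with library totals, where the median of the list was 0.06. In KO-ST versus WT-ST 4 were lower and 6 did not pass, in WT-ST versus WT-NS 4 fell, or 1 with library totals, and in KO-ST versus KO-NS 3 fell and 7 did not pass. Over all genes 18.7% were higher and 19.4% lower in the first comparison, and 17.5%, 13.8% and 14.4% were lower in the others. The medians of the list were -0.02, -0.06, -0.04 and -0.08 in these comparisons. *Baz1a*, which encodes the large subunit that CHRAC1 and POLE3 join, led the list in all 4, with log2 fold changes of -0.53, -0.51, -0.49 and -0.47 (SE 0.05 each). It was at 90.8 and 83.4 CPM in WT-NS, 60.8 and 63.3 in WT-ST, 61.4 and 59.1 in KO-NS, and 44.6 and 42.5 in KO-ST. *Smarca5*, the ATPase of the same complex, was lower in IPO13-/- cells by -0.18 (SE 0.04) without and -0.15 (SE 0.04) with stress.

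**Figure D4:**
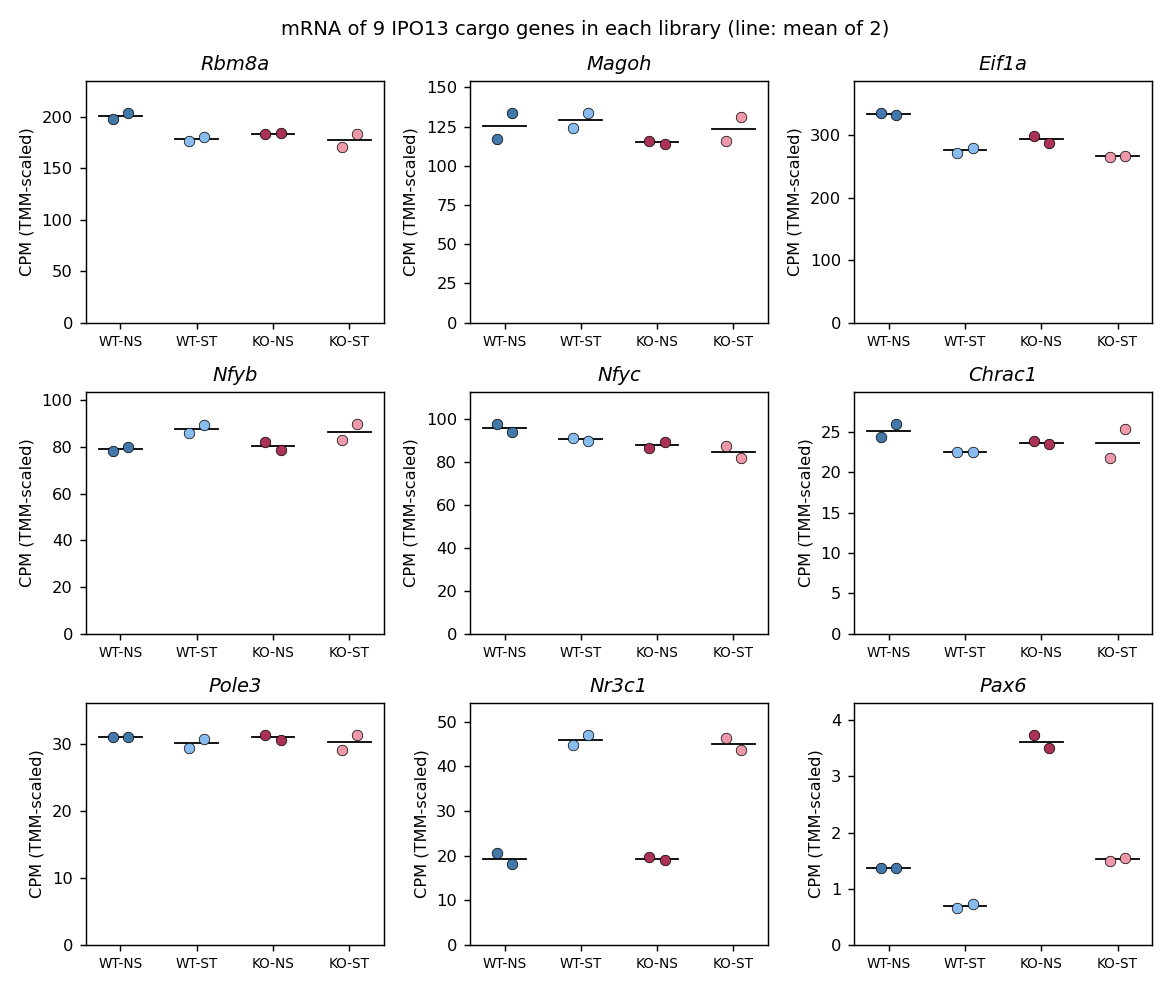
Normalized expression (CPM after TMM scaling) of the 9 cargo genes in each of the 8 libraries, with a line at the mean of the 2 libraries of a group and axes that start at 0. *Nr3c1* and, by a small margin, *Nfyb* separate treated from untreated libraries. *Pax6* and *Eif1a* each separate all 4 groups, and the remaining genes span narrow ranges.

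Other proteins have been reported as IPO13 cargoes, and 11 such genes were examined in the same fit. In KO-NS versus WT-NS 2 were higher and 2 lower, in KO-ST versus WT-ST 2 were lower and 9 did not pass, and H2O2 lowered 1 in each genotype while 10 did not pass. These counts are near the shares over all genes, of which 18.7% were higher and 19.4% lower in the first, 17.5% lower in the second, and 13.8% and 14.4% fell. The medians were -0.01, 0.09, -0.01 and 0.01. *Synpo2*, encoding the actin-binding protein myopodin, was lower in IPO13-/- cells by -0.69 (SE 0.18) and -0.81 (SE 0.18), at mean levels of 0.781 CPM in KO-NS and 1.27 in WT-NS, and *Drap1*, a histone-fold corepressor, by -0.27 (SE 0.05) and -0.13 (SE 0.05). Its partner *Dr1* was higher by 0.13 (SE 0.05) without stress. *Klf4*, a pluripotency factor, was higher in IPO13-/- cells without stress by 0.13 (SE 0.04) and fell with H2O2 by 0.18 (SE 0.04) in IPO13+/+ and 0.27 (SE 0.04) in IPO13-/- cells on the log2 scale.

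The difference between the stress responses of the genotypes was then tested for each cargo gene. None of the 9 passed an FDR of 0.05 in the interaction, where 2.71% of all genes did (edgeR's quasi-likelihood test), and limma-voom and DESeq2 also called 0. At an unadjusted p under 0.05 it was 2 genes with edgeR and with limma-voom, *Rbm8a* and *Eif1a*, and 1 with DESeq2, *Eif1a*. The interaction values lay between -0.27 for *Pax6* and 0.15 for *Chrac1*, with standard errors of 0.21 and 0.09. The median over the cargo genes was 0.03, beside 0.02 over all genes.

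The genes whose log2 CPM over the 8 libraries was most like that of a cargo gene are given as a description. Each correlation rests on 8 libraries in 4 groups, over which any genes that differ between the groups in a like manner correlate, and 12202 genes were compared. Those most like *Nr3c1* were *Rb1* (r = 0.999) and *Fam124a* (r = 0.997), and those most like *Pax6* were *Gbx2* (r = 0.997) and *Nfatc2ip* (r = 0.994). *Eif1a* was most like *Slc44a1* (r = 0.991) and *Rpf1* (r = 0.986). *Rbm8a* was most like *Tmem11* (r = 0.984), *Magoh* like *Chchd1* (r = 0.971) and *Nfyc* like *Ints9* (r = 0.98). The lowest values of this kind were those of *Pole3*, with *Pbdc1* (r = 0.891) and *Cluap1* (r = 0.888). No cargo gene was among the 2 genes most like another.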

How the data were processed

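The authors deposited, for each of 8 libraries, raw counts of reads on 23420 gene symbols, and CPM, which equal each count divided by the library total within 0.0005. Per the labels, bcl2fastq, STAR 2.3.1, HTSeq, limma and the build mm10 were used upstream; whether counting used strand is not given in the sources used here. The labels and the study's methods name different sequencer models, lane numbers and read lengths. The counts were analysed in R 4.3.3 with edgeR 4.0.16 (quasi-likelihood test, TMM factors) in a single fit of the 8 libraries with a coefficient for every group, over the 19424 genes with 1 count or more in some library. P-values were two-sided and adjusted by the Benjamini-Hochberg method over these genes, giving the FDR. Standard errors were obtained as the size of the log2 fold change over the root of its F statistic, and 95% intervals are normal. An exact permutation test of 2 against 2 libraries cannot go below p = 0.333 and was not used. Limma-voom (3.58.1) and DESeq2 (1.42.0) were among the 8 alternatives. The procedure was tested on simulated data. Totals of 60397877 to 73789079 counts per library set the precision of low genes such as *Pax6*. Replicates of a group differed by more than sampling noise, for which the chi-square per gene is about 1. It was 15 in WT-NS, 2.26 in WT-ST, 4.58 in KO-NS and 6.59 in KO-ST. The fit shares its estimate of the spread over the groups, so the error of comparisons with WT-NS may be understated.

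The cargo genes and all gene lists were chosen with earlier results of these data known. Named are all cargo genes, *Ipo13*, their relatives, from each list and comparison up to 4 genes past the FDR with 10 or more counts in each library of a compared group by largest change, and the 2 genes most correlated with each cargo gene (mean of at least 1 CPM, pseudocount 0.5). Positions and exon lengths come from GENCODE M21 (GRCm38, in which 21751 symbols were found), and promoters from RefSeq. A result of the exon junction complex and decay list is not reported here.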

Additional observations from a re-analysis of the deposited data

Results flagged for a closer look

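Among the 111 cargo and listed genes tested, 4 (3.60%, beside 2.71% of all genes) had stress responses that differed between the genotypes by a test of the difference itself (FDR below 0.05 for the interaction in edgeR's quasi-likelihood test), and none of the 4 is one of the 9 cargo genes. *Eif2s2*, a translation factor gene listed beside *Eif1a*, had an interaction of 0.19 on the log2 scale (SE 0.05, FDR = 0.023), with a change after H2O2 of -0.19 in IPO13+/+ and 0.01 in IPO13-/- cells. *Zfp42*, a stem cell marker, had an interaction of 0.22 (SE 0.06, FDR = 0.048), with changes of -0.12 and 0.10. *Esrrb*, a further stem cell marker, had an interaction of 0.21 (SE 0.05, FDR = 0.02), with changes of -0.01 and 0.20. *Thy1*, listed as a fibroblast marker, had an interaction of 0.47 (SE 0.13, FDR = 0.038), with changes of -0.26 and 0.21. With library totals in place of TMM factors none of the 4 passed, with FDR of 0.17, 0.21, 0.14 and 0.079 in that order. Groups of 2 libraries are too small for a check of single libraries that stand apart.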

How the results depend on the processing

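All calls of *Nr3c1* and *Pax6* and the calls of *Eif1a* other than that in KO-ST versus KO-NS held under every alternative run: limma-voom, DESeq2, library totals in place of TMM factors, relative log expression factors, filterByExpr, at least 10 counts, the replicate block, only the libraries compared, and each of 8 libraries left out. Limma-voom, DESeq2, relative log expression factors and the 10-count filter called the same cargo genes as the values reported. In KO-NS versus WT-NS 2 cargo genes passed with library totals and 2 with only the libraries compared, where 4 are reported, because *Rbm8a* and *Nfyc* were lost. With a library left out, the counts ran from 2 to 4 in KO-NS versus WT-NS, from 1 to 2 in KO-ST versus WT-ST, from 4 to 6 in WT-ST versus WT-NS and from 2 to 4 in KO-ST versus KO-NS, and were 0 in the interaction; a group left with 1 library is assumed to vary like the others.

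The replicate numbers were not taken to pair the libraries. The deviations of same-numbered libraries correlated between -0.02 and 0.28 over 12615 genes, above 0.1 in 3 of 6 pairs of groups. These were WT-NS with KO-NS (0.17), WT-NS with KO-ST (0.28) and KO-NS with KO-ST (0.12). Whether same-numbered libraries shared a batch was not tested. Blocking on the replicate number, 5, 2, 6 and 4 cargo genes passed in KO-NS versus WT-NS, KO-ST versus WT-ST, WT-ST versus WT-NS and KO-ST versus KO-NS, and 0 in the interaction. The additional calls were *Magoh* (FDR = 0.012), *Nfyc* (FDR = 0.043), *Chrac1* (FDR = 0.013) and *Nfyb* (FDR = 0.046), in that order. The value of *Nr3c1* in KO-NS versus WT-NS was -0.00016 with the block.

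Changes of sign occurred only among values near 0 that passed no test in the fit reported, and the cause was not tested. *Nr3c1* in KO-NS versus WT-NS was -0.0035 with DESeq2, -0.003 with relative log expression factors and -0.0012 with the 10-count filter. *Pole3* in KO-ST versus WT-ST was -0.0096 and -0.0097 with DESeq2 and relative log expression factors, and its interaction was -0.0045 and -0.0047 with these, -0.0099 with filterByExpr and -0.064 with library totals. *Pole3* in KO-NS versus WT-NS was 0.014 with filterByExpr, 0.012 with only the libraries compared and 0.079 with library totals. *Chrac1* in KO-ST versus KO-NS was 0.00064 with filterByExpr. With library totals *Rbm8a* in KO-ST versus WT-ST was 0.0019, and the interactions of *Magoh* and *Nfyc* were -0.014 and -0.044. With a library left out, values in KO-NS versus WT-NS ran from -0.084 to 0.089 for *Nr3c1* and from -0.0034 to 0.023 for *Pole3*. In KO-ST versus WT-ST they ran from -0.047 to 0.17 for *Chrac1*, -0.16 to 0.02 for *Magoh*, -0.078 to 0.038 for *Nfyb*, -0.069 to 0.013 for *Nr3c1*, -0.045 to 0.056 for *Pole3* and -0.056 to 0.04 for *Rbm8a*. In WT-ST versus WT-NS *Magoh* ran from -0.055 to 0.14. In KO-ST versus KO-NS *Chrac1* ran from -0.11 to 0.11, *Nfyc* from -0.094 to 0.0071, *Pole3* from -0.076 to 0.026 and *Rbm8a* from -0.089 to 0.0068. The interactions ran from -0.045 to 0.15 for *Magoh*, -0.036 to 0.064 for *Nfyc*, -0.12 to 0.056 for *Nr3c1* and -0.056 to 0.045 for *Pole3*. With 45 to 283 counts per library, *Pax6* is the cargo gene whose precision depth limits most.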
